A study of Mus musculus with 3 samples.

Results

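The miR-99/100 and miR-125 families were examined in extracellular vesicles (EVs) from the mouse testis at postnatal day 7 (PND7). Members were every mature or hairpin entry of the catalogues named miR-99a, miR-99b, miR-100, miR-125a or miR-125b, on the 5p or the 3p arm, with or without a copy number. These were 11 of the 805 identifiers with a mature or hairpin entry, and they held 10 of the 604 mature entries and 11 of the 743 hairpin entries. Each of the 11 identifiers had a count, as mature or as hairpin, in all 3 libraries.

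The study isolated EVs from decapsulated testes of C57/BL6 male mice, pooled 10 mice for each preparation, and sequenced the RNA left after the EVs were treated with proteinase K, PMSF and RNase A. The 3 libraries were labelled as biological replicates of a single group, so each comparison here was made between RNAs within a library. The sample titles carry the word treated and do not say what it refers to, the source describes EVs isolated from PND7 testis, and the study elsewhere treated cultured spermatogonia with such EVs. A figure legend of the study gives small RNA sequencing of PND7 testis EVs as 3 samples, each a pool from 10 mice. The study's account of statistics instead gives small RNA sequencing fewer sets, of cultures, than the 3 libraries. The libraries were taken as those EV samples, and the word itself was left unresolved here. The EVs came from the whole testis without separation of the cells that released them.

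The miR-99/100 and miR-125 genes lie beside let-7 genes in clusters that are conserved across animals. miR-125 is the vertebrate counterpart of lin-4, which with let-7 times development in the nematode, and both families repress Lin28, an RNA-binding protein that blocks let-7 maturation. miR-99 and miR-100 belong to the extended miR-10 family and are known to repress components of mTOR signalling. A miRNA selects its targets mainly by its seed, bases 2 to 8 of the mature strand, and the 5p arm is the strand usually loaded into Argonaute for both families.

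All 11 member identifiers were found among the 1679 mature miRNA names of RefSeq for GRCm38.p6. The 5p sequences are shown because their closeness sets how well reads of the members can be told apart, with the seed in capitals and the prefix mmu for mouse as in the catalogues, which is left off elsewhere. The 3 members of the miR-99/100 family have the same seed, and so do both members of the miR-125 family.
mmu-miR-99a-5p: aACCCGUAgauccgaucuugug
mmu-miR-100-5p: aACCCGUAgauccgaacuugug
mmu-miR-99b-5p: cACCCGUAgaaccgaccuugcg
mmu-miR-125b-5p: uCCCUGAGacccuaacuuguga
mmu-miR-125a-5p: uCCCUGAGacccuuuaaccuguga
Counted from 1 at the 5′ end, miR-99a-5p and miR-100-5p differ by the single substitution U16A and are the same at 21 of 22 bases. miR-99b-5p differs from miR-99a-5p by A1C, U11A, U16C and U21C. miR-125b-5p and miR-125a-5p share their first 13 bases, and are 22 and 24 bases long. The mismatches allowed in mapping are not given in the sources used here, so the division of reads between miR-99a-5p and miR-100-5p rests on that single base.

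The 3p sequences are shown because they name the locus of miR-125b, whose 5p arm is the same from both of its genes. The seed is again in capitals, and only miR-99a-3p and miR-99b-3p have a seed in common.
miR-125b-1-3p: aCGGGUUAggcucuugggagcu
miR-125b-2-3p: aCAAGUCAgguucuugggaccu
miR-99a-3p: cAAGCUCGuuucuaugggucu
miR-99b-3p: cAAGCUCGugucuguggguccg
miR-100-3p: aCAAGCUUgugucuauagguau
miR-125a-3p: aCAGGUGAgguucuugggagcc
From miR-125b-1-3p to miR-125b-2-3p the substitutions are G3A, G4A, U7C, C11U and G20C, so the 3p strands can be told apart where the 5p strands cannot.

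The members come from 3 clusters of the GRCm38 genome, all on the plus strand, by the GENCODE annotation. On chromosome 16, Mir99a (77598936 to 77599000) is followed after 656 bases by Mirlet7c-1 and after a further 46522 bases by Mir125b-2 (77646273 to 77646343). All 3 lie in introns of the long noncoding RNA gene Mir99ahg. On chromosome 17, Mir99b (17830188 to 17830257), Mirlet7e and Mir125a (17830812 to 17830879) are packed into 692 bases. Mir99b and Mirlet7e lie in an intron of Spaca6, a protein-coding gene, and Mir125a overlaps one of its exons. On chromosome 9, Mir100 (41531425 to 41531504) is followed after 5211 bases by Mirlet7a-2 and after a further 45114 bases by Mir125b-1 (41581926 to 41582002), in introns of the noncoding genes 3110039I08Rik and Gm49317. The spans of the chromosome 16 and chromosome 9 clusters were 47408 and 50578 bases.

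The precursor hairpins of Mir99a and Mir125a are shown for where their arms lie, which are in capitals, since their 5p products were the highest and the lowest of the 5p members in mature counts.
Mir99a: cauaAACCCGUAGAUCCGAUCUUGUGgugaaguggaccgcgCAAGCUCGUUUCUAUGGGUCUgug
Mir125a: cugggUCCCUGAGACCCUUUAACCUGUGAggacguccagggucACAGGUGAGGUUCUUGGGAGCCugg
The hairpins are 65 and 68 bases long, and the arms are separated by loops of 15 and 14 bases.

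The libraries of replicates 1, 2 and 3 held 25716952, 26002463 and 27939308 clean reads. Of these, 870967, 1005836 and 966468 were counted on mature entries and 493345, 612122 and 577529 on hairpin entries. The catalogues give each identifier up to 2 types of entry, mature and hairpin, and the sources used here do not define how a read named for an arm came to be counted as hairpin. CPM here means an entry's counts for every 1000000 counts of the same type in the same library. The labels give the libraries as separate biological replicates, and none was a copy of another, with a pairwise chi-square per degree of freedom of 96.6 to 187 over 272 mature entries. Lists of markers were looked up in mature entries alone, so a marker at 0 may still have hairpin counts. Among them, miR-202, which is abundant in gonadal somatic cells, summed to 21200 to 29800 CPM over both arms. Of 5 erythroid miRNAs, 4 were detected with a sum of 360.9 to 599.3 CPM, and miR-144-5p was at 0. Of 3 miRNAs known from germ cells at meiosis and later, 1 was detected with 442 to 1060 CPM, and miR-34b-5p and miR-34c-5p were at 0. miR-206-3p of skeletal muscle ranged from 12.9 to 145.9 CPM. The part of these cell types in the members' levels was not tested.

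The 5p members were abundant in PND7 testis EVs, and the miR-99/100 family held most of the members' mature counts. The 11 identifiers had 50304, 58020 and 43944 mature counts in replicates 1, 2 and 3. These were 5.78%, 5.77% and 4.55% of all mature counts, with a mean of 5.36% ± 0.707 (SD, n = 3). The largest exact binomial (Clopper-Pearson) 95% interval of these shares reached 0.049 percentage points to either side. Such intervals cover counting error only, since PCR copies were not told apart, and replicate 3 lay outside those of the others. The 3 5p members of the miR-99/100 family held 4.99% ± 0.695 of the mature counts and both 5p members of the miR-125 family held 0.325% ± 0.0201 (SD, n = 3 each). Among hairpin entries the families were closer, with 2.03% ± 0.269 for miR-99/100 and 1.42% ± 0.0741 for miR-125 (SD, n = 3 each). A library of pooled EVs cannot tell fewer EVs from a cell type apart from less of a miRNA in each EV. Of the 604 mature and 743 hairpin entries, the 50 most abundant of each type held 4 members, all of the 5p arm.

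miR-99a-5p was the member with the highest mature level. It had 34482, 36269 and 26063 mature counts, or 39590, 36059 and 26967 CPM, with a mean of 34205 ± 6512 CPM (SD, n = 3), which placed it at rank 7 of the 604 mature entries. Replicate 3 was the lowest, and all 3 libraries were above every other member. miR-99b-5p, encoded in the compact chromosome 17 cluster, followed at rank 16 with 11805, 13951 and 11849 CPM. Its mean of 12535 ± 1226 CPM (SD, n = 3) was lower than the lowest library of miR-99a-5p, and the difference between them was 21670 ± 6345 CPM within libraries.

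miR-100-5p, the near-identical relative of miR-99a-5p, stood at rank 33 with 2375, 3787 and 2987 mature counts. These were 2726.9, 3765.0 and 3090.6 CPM, and replicate 2 was the highest. miR-125b-5p was close to it at rank 37, with 2104, 2716 and 2180 counts, or 2415.7, 2700.2 and 2255.6 CPM. miR-100-5p exceeded miR-125b-5p in 3 of 3 libraries by 737 ± 386.3 CPM (SD, n = 3), and its lowest library was just above the highest of miR-125b-5p. miR-125a-5p was the lowest 5p member at rank 81, with 671, 782 and 809 counts. Its 770.41, 777.46 and 837.07 CPM were below every library of the other 4 members.

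In hairpin entries the order changed and miR-125a-5p moved from the last place to the second. miR-99a-5p had 6972, 6364 and 5883 hairpin counts, or 14132, 10397 and 10187 CPM of hairpin counts. miR-125a-5p had 4176, 6207 and 5608, or 8464.7, 10140 and 9710.3 CPM. The difference between them was above 0 in 3 of 3 libraries but its mean of 2133 CPM was smaller than its SD of 3063, and replicate 1 carried most of it. miR-99b-5p (6516.4 ± 154.5 CPM), miR-125b-5p (4796.6 ± 132.8 CPM) and miR-100-5p (2251.2 ± 366.7 CPM; SD, n = 3 each) followed, and each neighbour in this order differed in the same direction in 3 of 3 libraries. The plot of 5p levels shows both orders.

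**Figure D1:**
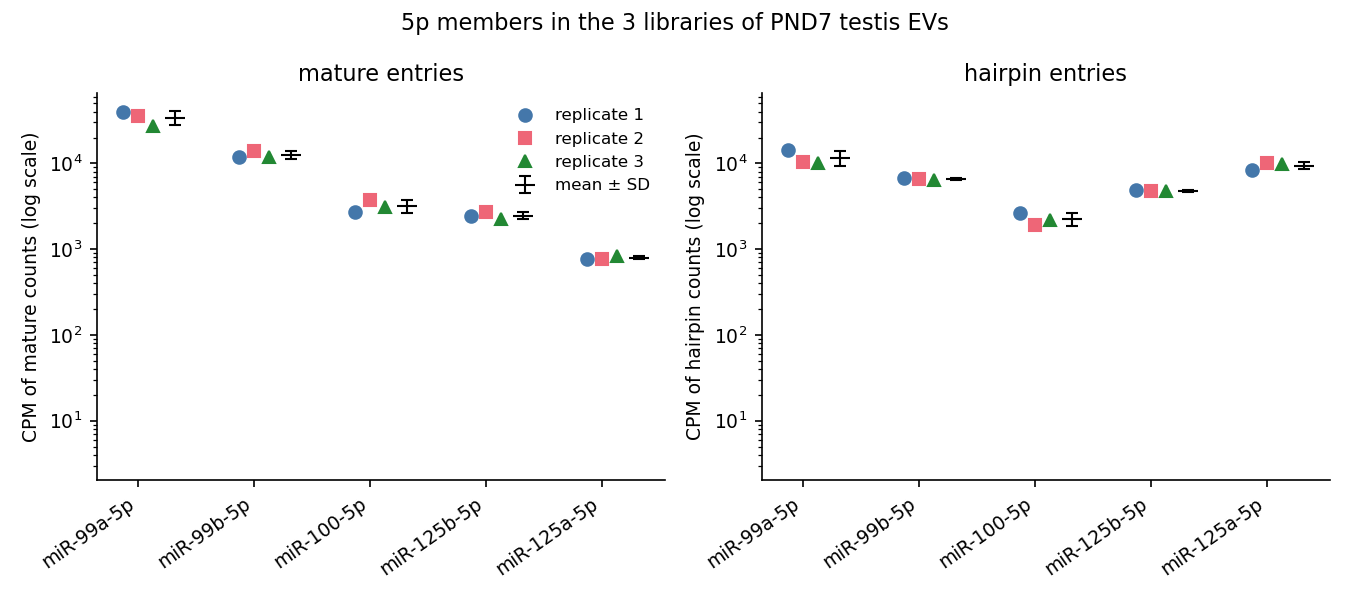
CPM of the 5p members, on a log axis, in mature entries (left) and hairpin entries (right) of the 3 libraries of PND7 testis EVs. Points are libraries and the black marks are the mean ± SD. miR-125a-5p is the lowest member in mature entries, at 794.98 CPM on average, and is close to miR-99a-5p in hairpin entries, at 9438.4 CPM.

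Within the miR-99/100 family, miR-99a-5p held 68.2% ± 4.51 of the mature counts, miR-99b-5p 25.3% ± 3.27 and miR-100-5p 6.47% ± 1.26 (SD, n = 3 each). The hairpin counts of the family were divided in the same order, with 56.6% ± 3.19, 32.3% ± 3.41 and 11.05% ± 0.716. In the miR-125 family the order depended on the entry type. miR-125a-5p held 24.5% ± 2.37 of the family's mature counts, 66.2% ± 2.74 of its hairpin counts and 54.6% ± 2.65 of their sum (SD, n = 3 each).

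The 5p members varied less between libraries than most mature entries did. Over the 272 mature entries that reached 10 counts in each of the libraries, the ratio of the highest to the lowest library in CPM had a median of 1.73. For the 6 member entries that passed this minimum it was 1.19, with a range from 1.09 for miR-125a-5p to 1.47 for miR-99a-5p. The other 4 mature member entries, all of 3p arms, did not pass. In hairpin entries the medians were 1.80 over 324 entries and 1.64 over 10 members. These spreads are descriptions, because abundant entries carry less counting error.

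The mature entries whose levels were most like those of each 5p member were named by the mean absolute difference in log2 CPM over the 3 libraries, among the same 272 entries. miR-125a-5p was matched most closely by miR-672-5p, at 0.10, and miR-100-5p by miR-322-5p, at 0.11. miR-30c-5p was the nearest to miR-125b-5p at 0.11, miR-22-3p to miR-99b-5p at 0.16 and let-7i-5p to miR-99a-5p at 0.24. With 3 libraries this likeness is mainly one of level.

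The division of reads between mature and hairpin entries set the members apart from each other. Hairpin entries held 16.8%, 14.9% and 18.4% of the summed counts of miR-99a-5p in replicates 1, 2 and 3, and 24.2%, 22.2% and 24.3% of those of miR-99b-5p. For miR-100-5p the shares were 35.5%, 23.8% and 29.6%. For miR-125b-5p they were 53.7%, 51.5% and 55.6%, and for miR-125a-5p 86.2%, 88.8% and 87.4%. No library of a miR-125 member overlapped with any library of a miR-99/100 member on the 5p arm. The exact binomial 95% interval of any of these shares reached at most 1.55 percentage points to either side. Hairpin entries held 36.2% to 37.8% of all mature and hairpin counts of a library. The median over the 395 identifiers with at least 10 counts in every library was 52.9%, with quartiles at 29.0% and 76.9%. Shares thus differed widely between identifiers in general, and how often other identifiers fail to overlap was not counted. The share of miR-125b-5p lay near this median.

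This balance was tested with edgeR's quasi-likelihood test over the 395 identifiers, with the library as block, where 10 of the 11 members passed the count minimum and miR-100-3p did not. Mature counts exceeded hairpin counts 5.0-fold for miR-99a-5p (log2 hairpin to mature -2.32, SE 0.095; adjusted p = 0.000374, n = 3). The excess was 3.25-fold for miR-99b-5p (adjusted p = 0.000572) and 2.40-fold for miR-100-5p (adjusted p = 0.0114) in the same edgeR test. For miR-125a-5p the hairpin counts were 7.0-fold higher than the mature counts (log2 2.81, SE 0.128; edgeR adjusted p = 0.000498). For miR-125b-5p the log2 ratio was 0.21 (SE 0.112) and did not pass (edgeR adjusted p = 0.214), while the median over all 395 identifiers was also 0.21. DESeq2 gave the same calls and directions for these 5 members. Of the 10 members tested, 3 were called with mature counts higher, against 81 of the 395 identifiers or 20.5%. In the other direction 1 member was called, against 49 identifiers or 12.4%. Without replicate 2 the call of miR-100-5p was lost, at a log2 ratio of -1.06 and an edgeR adjusted p of 0.0595.

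**Figure D2:**
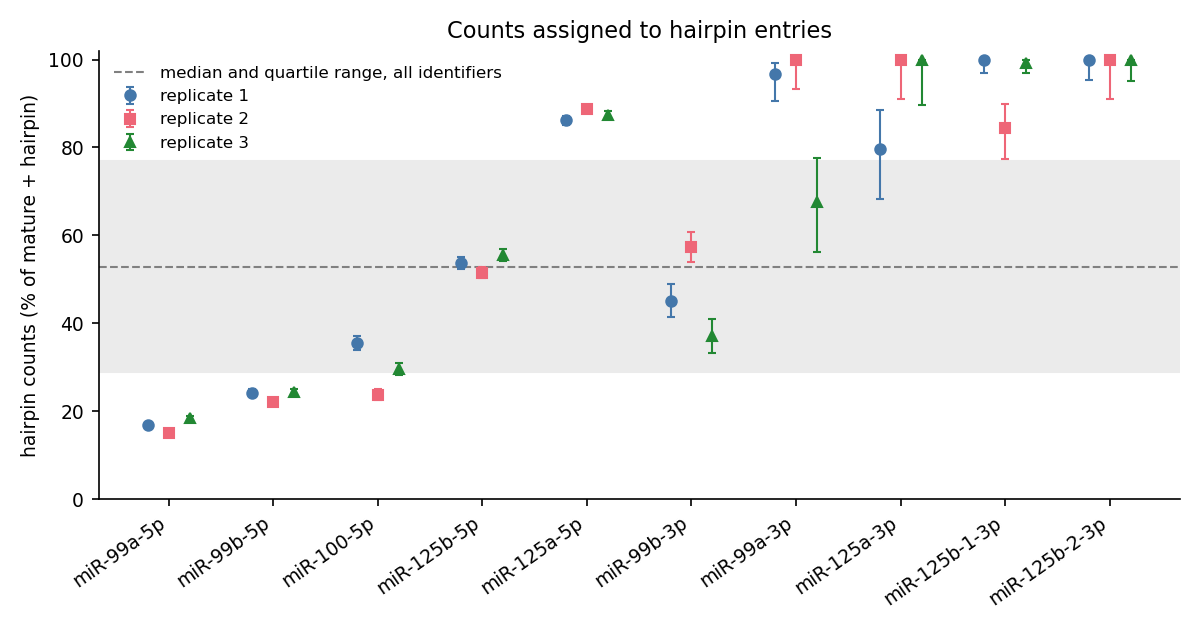
Percentage of the summed mature and hairpin counts assigned to the hairpin entry, for 10 members in the 3 libraries, with exact binomial 95% intervals. The dashed line and the grey band are the median (52.9%) and the quartiles (29.0% and 76.9%) over 395 identifiers. The 5p members run from 14.9% for miR-99a-5p to 88.8% for miR-125a-5p, and the 3p members drawn other than miR-99b-3p lie at or above 67.5%.

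The let-7 neighbours had hairpin shares below those of both miR-125 members. The share was 23.9% ± 1.70 for let-7c-5p, 36.9% ± 2.87 for let-7e-5p and 35.01% ± 1.75 for let-7a-5p (SD, n = 3 each). In the chromosome 17 cluster, which encodes its 3 miRNAs within 692 bases, the share thus ran from 23.6% ± 1.20 for miR-99b-5p through let-7e-5p to 87.45% ± 1.33 for miR-125a-5p. Among the relatives outside the clusters, miR-351-5p, which has the miR-125 seed, had a hairpin share of 62.2% ± 0.868. miR-10b-5p and miR-10a-5p of the extended miR-10 family had 30.5% ± 2.61 and 51.55% ± 5.16 (SD, n = 3 each).
miR-351-5p: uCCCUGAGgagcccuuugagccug
miR-10b-5p: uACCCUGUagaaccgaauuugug
In mature entries miR-351-5p had 1704, 1517 and 1504 counts, between miR-125b-5p and miR-125a-5p in every library. miR-10b-5p had 1892, 2559 and 1955, below miR-100-5p in every library.

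Members that share a cluster were compared as log2 ratios of counts within each library, since a primary transcript that spans a cluster would carry its members in equal number. With 3 libraries a two-sided exact permutation test that flips the sign of each library's ratio cannot give a p below 0.25, and each of the 9 ratios tested had p = 0.25, or 0.25 after Benjamini-Hochberg adjustment, because its sign was the same in 3 of 3 libraries. No ratio therefore passed a threshold of 0.05, and sizes and spreads are what the design gives.

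In the chromosome 17 cluster, where each miRNA has a single gene, mature miR-99b-5p exceeded mature miR-125a-5p by a log2 ratio of 3.94, 4.17 and 3.82. The mean of 3.97 ± 0.174 (SD, n = 3) was 15.7-fold. In hairpin entries the ratio turned to -0.53 ± 0.161, with miR-125a-5p 1.44-fold higher in 3 of 3 libraries. The summed counts gave 1.36 ± 0.124, or 2.57-fold more miR-99b-5p. let-7e-5p lay between them in mature counts, with 2940, 3594 and 6841. miR-99b-5p exceeded it 2.84-fold, with log2 ratios of 1.81, 1.97 and 0.74, and the lowest value was that of replicate 3, where let-7e-5p was highest. In hairpin counts the excess was 1.5-fold (0.58 ± 0.519, SD, n = 3), and in replicate 3 the log2 ratio of 0.0043 left the counts nearly equal.

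In the chromosome 16 cluster, mature miR-99a-5p exceeded miR-125b-5p 13.8-fold, with a log2 ratio of 3.78 ± 0.231 (SD, n = 3). The hairpin counts gave 1.25 ± 0.225, or 2.39-fold. miR-125b-5p also comes from chromosome 9, so the whole of its count was an upper limit for the product of Mir125b-2. let-7c-5p, with 88594, 106706 and 115034 mature counts at rank 2, exceeded miR-99a-5p 3.22-fold, at log2 ratios of miR-99a-5p to let-7c-5p of -1.36, -1.56 and -2.14. let-7c-5p has a further gene outside this cluster.

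In the chromosome 9 cluster, mature miR-100-5p was near miR-125b-5p, at log2 ratios of 0.17, 0.48 and 0.45 and a mean of 0.37 ± 0.169 (SD, n = 3), or 1.29-fold. In hairpin entries the ratio turned to -1.10 ± 0.194, and in summed counts to -0.23 ± 0.0672, below 0 in 3 of 3 libraries each. The counts of miR-125b-5p also hold the product of Mir125b-2 on chromosome 16, so they were an upper limit for that of Mir125b-1. let-7a-5p, with 23964, 33876 and 43439 mature counts from this and other loci, exceeded miR-100-5p 10.9-fold, at a log2 ratio of -3.45 ± 0.365.

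Between clusters, miR-99a-5p exceeded its near-identical relative miR-100-5p 10.7-fold in mature counts, with log2 ratios of 3.86, 3.26 and 3.13. The ratio was 2.36 ± 0.111 in hairpin counts, or 5.13-fold. miR-125b-5p exceeded miR-125a-5p 3.08-fold in mature counts (log2 ratio of miR-125a-5p to miR-125b-5p -1.62 ± 0.184). In hairpin counts miR-125a-5p was 1.96-fold higher (0.97 ± 0.175), and in summed counts the ratio was 0.27 ± 0.154 (SD, n = 3 each). The plot of ratios shows which comparisons kept their side of 0 in all 3 ways of counting and which did not.

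**Figure D3:**
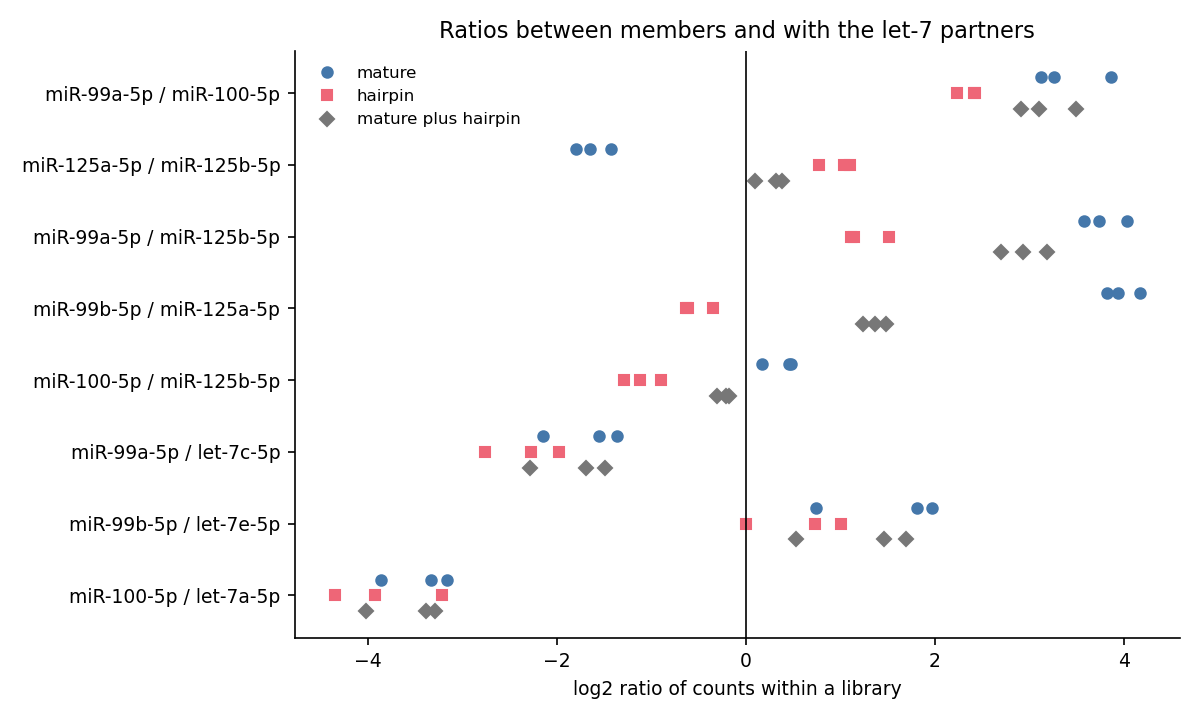
Log2 ratios of counts within a library, for pairs of 5p members and for members against their let-7 neighbours, with a point for each of the 3 libraries. Circles are mature, squares hairpin and diamonds summed counts, and the vertical line marks equal counts. miR-125a-5p to miR-125b-5p, miR-99b-5p to miR-125a-5p and miR-100-5p to miR-125b-5p lie on different sides of the line by entry type.

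The 3p arms were scarce, and 1 of them, miR-99b-3p, was counted steadily. It had 373, 376 and 395 mature counts, or 403.59 ± 27.58 CPM (SD, n = 3), at rank 109. Its hairpin counts were 307, 506 and 233, with replicate 2 the highest. The 6 3p members together held 0.0449% ± 0.00187 of the mature and 0.121% ± 0.0119 of the hairpin counts (SD, n = 3 each).

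The other 3p members had few or no mature counts. miR-99a-3p had 3, 0 and 26, miR-100-3p had 0, 35 and 30, and miR-125a-3p had 14, 0 and 0. miR-125b-1-3p had 0, 23 and 2, and miR-125b-2-3p had 0 in all 3 libraries, which allows up to 3 counts or 2.983 to 3.444 CPM in a library. No library was the highest for all of them. The libraries differed beyond counting error in the 3p share of each of these stems' mature counts, by exact 95% intervals that did not overlap. For miR-100 the interval ended at 0.155% in replicate 1 and began at 0.639% in replicate 2. For miR-99a it ended at 0.0102% in replicate 2 and began at 0.0651% in replicate 3. For miR-125a it ended at 0.471% in replicate 2 and began at 1.12% in replicate 1. For miR-125b, with its 3p copies summed, it ended at 0.175% in replicate 1 and began at 0.533% in replicate 2.

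The same 3p members were counted in hairpin entries in every library, apart from miR-100-3p, which had 1, 0 and 1. miR-125a-3p had 55, 39 and 34 hairpin counts and miR-99a-3p had 87, 53 and 54. The locus-specific strands of miR-125b were both present there, with 120, 124 and 229 counts for miR-125b-1-3p of chromosome 9 and 76, 39 and 72 for miR-125b-2-3p of chromosome 16. miR-125b-1-3p was the higher in 3 of 3 libraries, by 2.52-fold (log2 ratio of miR-125b-2-3p to miR-125b-1-3p -1.33 ± 0.583, SD, n = 3, exact permutation p = 0.25). Their hairpin excess over mature counts did not pass the edgeR test, with an adjusted p of 0.0818 for miR-125b-1-3p and 0.0832 for miR-125b-2-3p. It was 0.179 for miR-99a-3p and 0.143 for miR-125a-3p. DESeq2 called all 4 of these, with adjusted p-values from 5.96e-05 to 0.0208. It called more identifiers in general, 118 of 395 with hairpin counts higher, against 49 by edgeR. miR-99b-3p had no such excess, at a log2 ratio of hairpin to mature counts of -0.20 (edgeR adjusted p = 0.658).

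**Figure D4:**
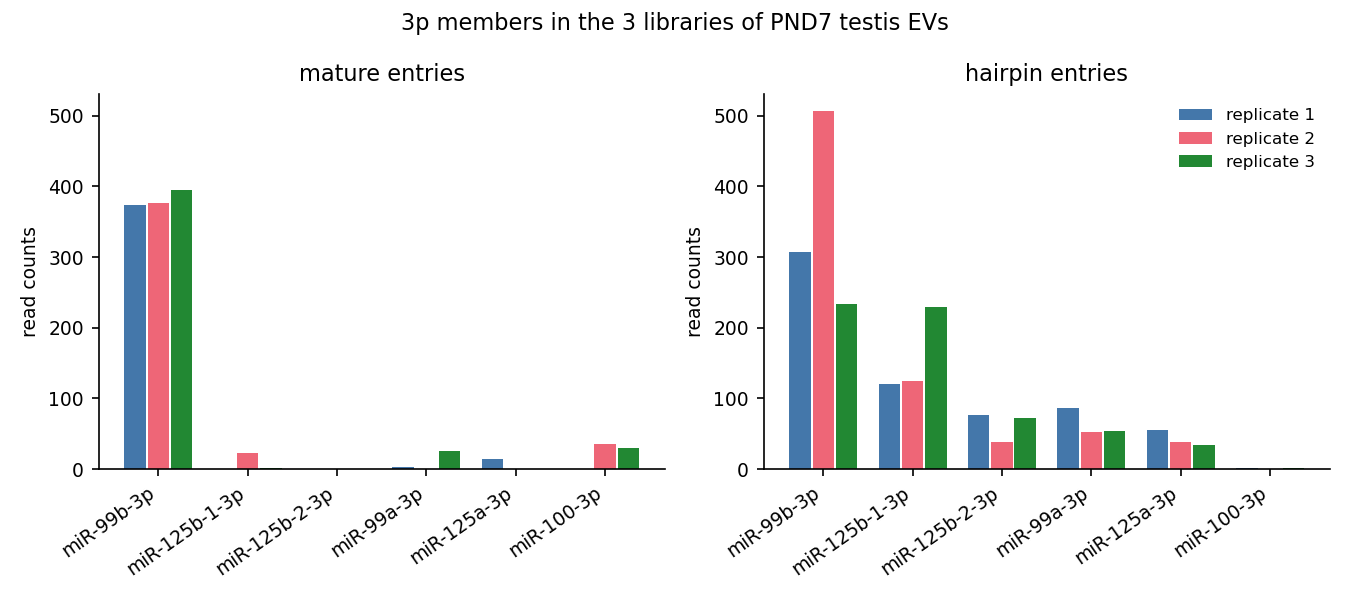
Read counts of the 6 3p members in mature entries (left) and hairpin entries (right), with a bar for each of the 3 libraries. miR-99b-3p has 373 to 395 mature counts, every other 3p member has at most 35, and miR-125b-2-3p has counts in hairpin entries alone.

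The 5p arm exceeded the 3p arm for all 5 stems, with the 3p copies of miR-125b summed. In mature entries the 3p arm of miR-99b held 3.50%, 2.61% and 3.33% of its stem's counts, a 31.0-fold excess of the 5p arm (log2 3p to 5p -4.95, SE 0.588; edgeR adjusted p = 0.0116, n = 3). The 3p arm held at most 0.0997% of the counts of miR-99a, 0.994% of miR-100, 2.04% of miR-125a and 0.84% of miR-125b in any library. The edgeR adjusted p-values of these 4 stems were 0.0221, 0.0445, 0.0495 and 0.0301, over 153 stems. All 5 stems were thus called with the 5p arm higher, against 43 of the 153 stems or 28.1%. No member was called with the 3p arm higher, which 14 stems or 9.15% were.

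The arm calls depended on having 3 libraries. Without replicate 1, edgeR called 3 of the 5 member stems, against 36 of 156 stems with the 5p arm higher. Without replicate 2 or replicate 3, edgeR called none of the 5, with adjusted p-values from 0.0994 to 0.2. No stem of any miRNA was called in these last fits, where 55 of 161 and 47 of 162 stems had an unadjusted p under 0.05. DESeq2 on all libraries called all 5 member stems, and 76 of all 153 stems, with the 5p arm higher. miR-125a also lost its call with no count filter (edgeR adjusted p = 0.0577) and with TMM scaling (0.0617). The direction was the same in each of these fits. In hairpin entries the 3p arm held a larger share than in mature entries in every library for 3 stems. The shares were 8.54%, 11.2% and 5.97% for miR-99b, 7.43%, 5.35% and 9.93% for miR-125b, and 1.23%, 0.826% and 0.91% for miR-99a. For miR-125a the hairpin share was 1.30%, 0.624% and 0.603%, lower than the mature share in replicate 1, and for miR-100 it was at most 0.0797%.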

How the data were processed

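Small RNA of PND7 testis EVs was sequenced by the authors on the BGISEQ-500 platform in 3 libraries. The authors mapped clean reads with Bowtie2 and cmsearch, gave each read to 1 class by a fixed order of databases, and deposited whole-number read counts for each small RNA and entry type without normalization. The build in the submitters' processing notes is mm10, which GRCm38 matches. Another column, whose header names molecular identifiers, held counts scaled to the clean reads in all 3 libraries and was left out.

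From the deposited counts, CPM of each entry type, shares with exact binomial (Clopper-Pearson) 95% intervals and log2 ratios within libraries were computed. Hairpin against mature counts (395 identifiers) and 3p against 5p mature counts (153 stems) were fitted with edgeR 4.0.16 (glmQLFit, glmQLFTest, R 4.3.3), with the library as block, the same library size for both columns of a library, at least 10 counts in every library and a threshold of 0.05 after Benjamini-Hochberg adjustment. The SE given with an edgeR log2 ratio is its absolute value divided by the square root of the F statistic. DESeq2 1.42.0, TMM scaling, no count minimum, hairpin or summed counts, a pseudocount of 1, other denominators and leaving out each replicate were alternatives. The planned mature ratio of miR-125b-2-3p to miR-125b-1-3p had no value, as miR-125b-2-3p had no mature count, and hairpin counts were used instead, a choice made after seeing the data.

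Small RNAs named beside the members were the let-7 neighbours of each cluster, relatives by seed or family, and the mature entry nearest in level to each 5p member. The members and lists were chosen with earlier results of these data known. Sequences came from RefSeq (GRCm38.p6) and positions from GENCODE vM21. Of the miRNAs sharing the miR-125 seed in RefSeq, miR-6367 and miR-6394 had no count here. Tables and plots were made in Python 3.11.15 with SciPy 1.17.1, matplotlib 3.10.9, numpy 2.4.6 and pandas 2.3.3.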

Additional observations from a re-analysis of the deposited data

Results flagged for a closer look

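The catalogues also hold precursor entries from Rfam, a database of RNA families, which no comparison above used. The mir-10 family precursor, the Rfam family that includes miR-99 and miR-100, had 1170, 1241 and 1288 counts in replicates 1, 2 and 3, or 46.4 ± 1.15 CPM of clean reads (SD, n = 3). The lin-4 family precursor, the Rfam family that includes miR-125, had 250, 592 and 257 counts, or 13.9 ± 7.69 CPM of clean reads, with replicate 2 the highest. These 6 values were marked because they lie above the 3 counts that a count of 0 allows in data outside the mature and hairpin entries, and there was no control library. An Rfam family does not name the gene, so these counts could not be divided between members and relatives such as miR-10a and miR-10b.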

How the results depend on the processing

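Of the 80 alternative values computed for the main results, 68 were classed as unchanged. For ratios this meant the same direction whatever the size. For the members' share it meant a value within the spread between libraries, and for counts of calls or members within 1.5 times. Several ratios kept their direction but changed by more than their SD between libraries. The log2 ratio of miR-99a-5p to miR-125b-5p fell from 3.78 ± 0.231 to 1.25 in hairpin counts. That of miR-99b-5p to miR-125a-5p fell from 3.97 ± 0.174 to 1.36 in summed counts. Of the values not classed as unchanged, 5 reversed, 2 moved, and 5 counts of calls changed by more, 2 upward and 3 downward. Within the 1.5 times, the members called as unequal in mature and hairpin counts fell from 4 to 3 without replicate 2, and the arm calls from 5 to 4 with no count filter or with TMM. The 5 reversals were between entry types. The log2 ratio of miR-125a-5p to miR-125b-5p was 0.97 in hairpin and 0.27 in summed counts, that of miR-99b-5p to miR-125a-5p was -0.53 in hairpin counts, and that of miR-100-5p to miR-125b-5p was -1.10 in hairpin and -0.23 in summed counts. The cause was not tested. The members' share of 5.36% was 3.58% among hairpin counts and 0.192% of clean reads, and 5.16% to 5.77% with 1 replicate left out. DESeq2 called 8 members as unequal in mature and hairpin counts with either scaling, against 4 by edgeR, and the arm calls fell from 5 to between 0 and 3 with 1 replicate left out.

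Over all identifiers, DESeq2 called 118 with hairpin and 110 with mature counts higher, against 49 and 81 by edgeR. The share of hairpin-higher calls was 51.8%, or 53.8% with median-of-ratios scaling, against 37.7%. Calls by edgeR without replicates 1, 2 and 3 were 28 and 51, 27 and 42, and 46 and 66. Between arms, DESeq2 called 42 stems with the 3p and 76 with the 5p arm higher, its median-of-ratios scaling gave 52 and 63, TMM gave 25 and 36, and edgeR 14 and 43, so the share of 3p-higher calls was 35.6%, 45.2%, 41.0% and 24.6%. Without replicate 1, edgeR called 9 and 36 stems. Summed mature and hairpin counts gave 31 and 63 of 178 stems. TMM, which scales each column to its own total, moved the median log2 ratio of hairpin to mature counts from 0.21 to 0.39 and that of 3p to 5p counts from -3.05 to -1.71, median-of-ratios scaling moved them to 0.34 and -1.37, and no member's sign changed under either. Of the values of single members, 61 of hairpin against mature were unchanged in call, 8 gained a call, all with DESeq2, and 1 lost it, while 26 of 3p against 5p kept and 14 lost the call. Both fits already pair the counts of a library, and with 1 group there was no pairing of samples across groups to try. Depth limits the 3p members most, whose mature counts were at most 35 apart from miR-99b-3p.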
